A study of Mus musculus with 4 samples.

Results

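The tripartite motif (TRIM) genes outside the TIF1 subfamily were examined in mouse embryoid bodies with and without Trim33, to see whether paralogs of the deleted gene changed in level. They were chosen by symbol alone, as every gene named Trim with a number and at most 1 letter, less the TIF1 genes Trim24, Trim28, Trim33 and Trim66. This gave 61 of the 24015 genes in the files. Embryoid bodies are clumps of embryonic stem cells grown in suspension, where they form many cell types side by side. Per the labels, the stem cell lines came from mouse embryos of an outbred strain, homozygous for Trim33-flox and carrying UbcCreERT2, a tamoxifen-activated Cre recombinase under the broadly active ubiquitin C promoter. Cells at passages 8 to 10 were kept without feeders in LIF and 2i before differentiation. The Trim33-deficient group (n = 2) lost the gene after 4OH-Tamoxifen on day 4, and both groups were harvested on day 7. The Control group (n = 2) is labelled wild type, although its growth protocol describes the same floxed lines with Cre, and its labels do not settle whether it received tamoxifen. The labels call the samples independent pairs but do not say whether they came from separate lines, so the p-values rest on how much these libraries vary, which may be technical.

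TRIM proteins share an N-terminal RING finger, B-boxes and a coiled coil, and most act as E3 ubiquitin ligases. Their C-terminal domains divide them into classes, with an NHL repeat, a PRY-SPRY domain or a COS box with a fibronectin repeat among them. The TIF1 class, to which Trim33 belongs, carries a PHD finger and a bromodomain that read histones. The genes described here lack that pair. They are known for antiviral signalling, RNA control in stem cells, microtubule binding in neurons and protein turnover in muscle.

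The libraries held 10422738 to 13808837 counts in genes. Trim33 itself stood at 93.0 and 109 CPM (counts scaled to library size, with TMM factors) in Control bodies against 43.8 and 42.3 CPM in Trim33-deficient ones, so that 42.6% was left; counts per gene do not set the floxed exons apart from the others. Summed over 10 markers, visceral endoderm stood at 1050 and 1231 CPM in Control bodies against 106 and 112 CPM in Trim33-deficient ones. Neuron, cardiomyocyte, endothelial and erythroid markers were detected in every library. Of 6 macrophage and leukocyte markers, Ptprc, the pan-leukocyte gene, had 1 count in all. Cd68, however, had 68 to 201 counts per library and Csf1r 56 to 189. The sum of the 6 was 30.2 and 13.2 CPM in Control bodies against 14.6 and 20.5 CPM in Trim33-deficient ones. Control replicate 1 was unlike Control replicate 2 in several of these lists, with 552 against 118 CPM for neuron markers and 6.10 against 134 CPM for erythroid markers. In bulk RNA, fewer cells of a type and less RNA per cell cannot be told apart.

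Neither any TRIM gene outside the TIF1 class nor Trim33 itself passed the main test for a change. Trim33, at a log2 fold change of −1.23 (SE 0.13), had an adjusted p of 0.219 with edgeR and 1.78e-06 with DESeq2, so 0 calls from the main test does not show that levels stayed the same. A filter on low counts left 41 of the 61 members and 14259 genes in all. With edgeR's quasi-likelihood test, 0 of these 41 members had an adjusted p under 0.05, where 0.014% of all tested genes did, and the lowest adjusted p among members was 0.63. At an unadjusted p under 0.05 there was 1 lower member, Trim25, and 0 higher members, against 4.78% lower and 3.06% higher over all tested genes. DESeq2 called 0 members at an adjusted p under 0.05, against 0.989% of tested genes, and had 2 lower at the unadjusted level, Trim25 and Trim9. The likelihood ratio test of edgeR called 0 members, against 1.19% of all tested genes. Limma voom called 0 members and 0% of all tested genes, so its count says nothing of the members. None of the members is among the 84 genes in the authors' deposited table.

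The tested members spread evenly on both sides of 0. Their log2 fold changes (Trim33-deficient over Control) were above 0 for 20 and below 0 for 21, with a median of −0.021, beside a median of −0.0014 over all tested genes. They ran from −1.76 for Trim9 to 1.29 for Trim55, and 70.7% of them, against 79.2% of all tested genes, lay within 0.5 of 0. Both Trim33-deficient libraries lay above both Control libraries for 11 members, where 19.3% of all tested genes did so, and below them for 7, where 21.4% did. A member high in 1 group can pass the filter through that group alone, so these counts describe the 41 and not the whole family.

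**Figure D1:**
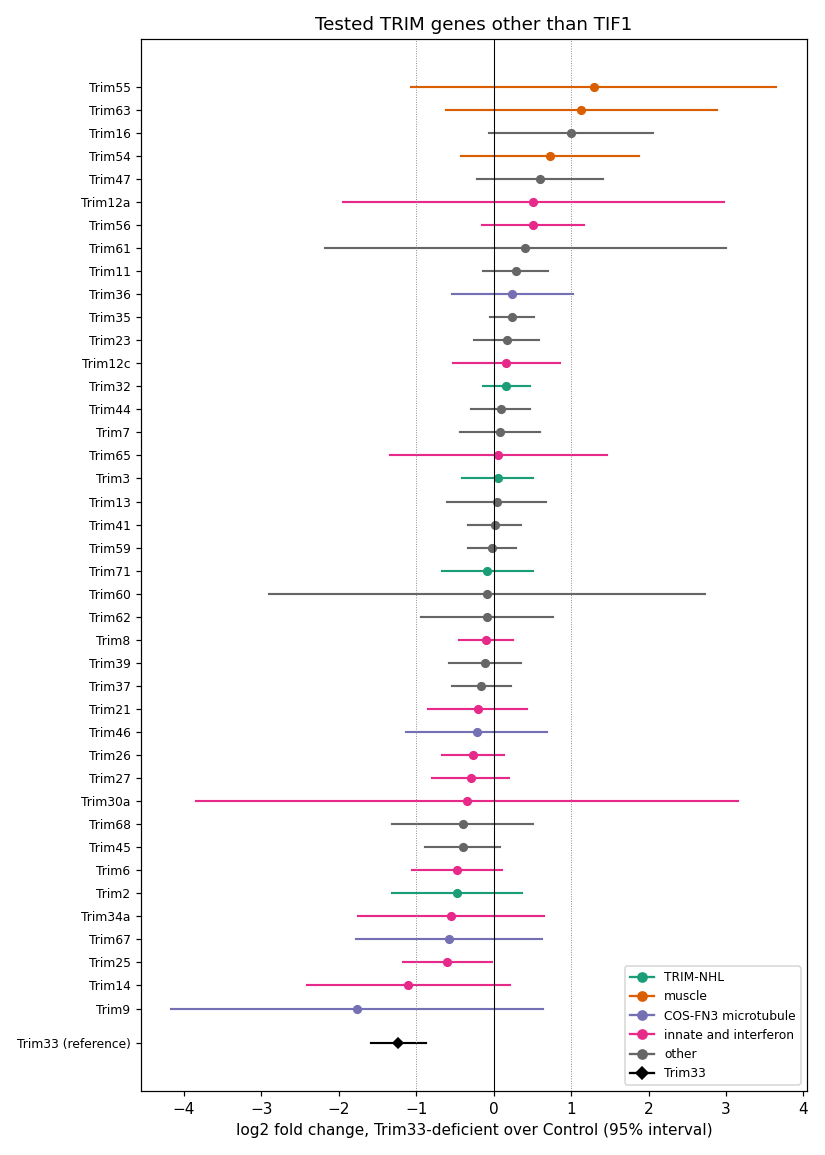
Log2 fold change (x axis, Trim33-deficient over Control) of each of the 41 tested members (y axis), with its 95% interval from the edgeR quasi-likelihood fit. Colours mark the NHL, muscle, COS box and innate immunity lists, and all other members are grey. Dotted lines mark 2-fold changes, the black diamond is Trim33 for reference, and only the interval of Trim25 among the members lies on one side of 0.

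How large a rise the main edgeR fit allows differed between members, and no intervals were taken from the alternative fits. For 29 of the 41 tested members the upper end of the 95% interval was below a 2-fold rise, and for 20 the whole interval lay within 2-fold in either direction. The other 12 had upper ends of 2-fold or more, and their mean level was at most 11.9 CPM. These 12 were Trim12a, Trim16, Trim30a, Trim36, Trim47, Trim54, Trim55, Trim56, Trim60, Trim61, Trim63 and Trim65. Rare members were also among the 29, such as Trim14 (1.93 CPM) and Trim34a (1.70 CPM), whose log2 fold changes were below 0. Trim9, with an upper end of 1.55-fold, was among the 29 too. Its log2 fold change turned from −1.76 to 0.15 without Control replicate 1. Summed over all 61 members, Control bodies reached 1903 ± 43.2 CPM and Trim33-deficient ones 1832 ± 37.1 CPM (SD, n = 2 per group). Trim33 alone differed by 58.0 CPM between the groups.

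Levels between genes were compared per length, as TPM (each gene's counts per base as a share of the library) computed from the counts and the longest annotated transcript. By mean TPM over the 4 libraries, 24 members were at 10 or more, 16 between 1 and 10 and 21 under 1. Trim33 had a mean of 35.8 TPM in Control, and 13 members had a higher Control mean. The leading 5, all above 100 TPM, were Trim35 (192), Trim59 (154), Trim27 (133), Trim44 (124) and Trim8 (119). The neighbours Trim27, Trim44 and Trim8 overlapped in their library values, with 109 to 175, 110 to 133 and 111 to 139 TPM. Their order is thus not fixed by these data. In Control replicate 1 Trim27, at 175 TPM, was also above Trim35 at 173 and Trim59 at 155 TPM. Its place below those genes is therefore not fixed either.

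**Figure D2:**
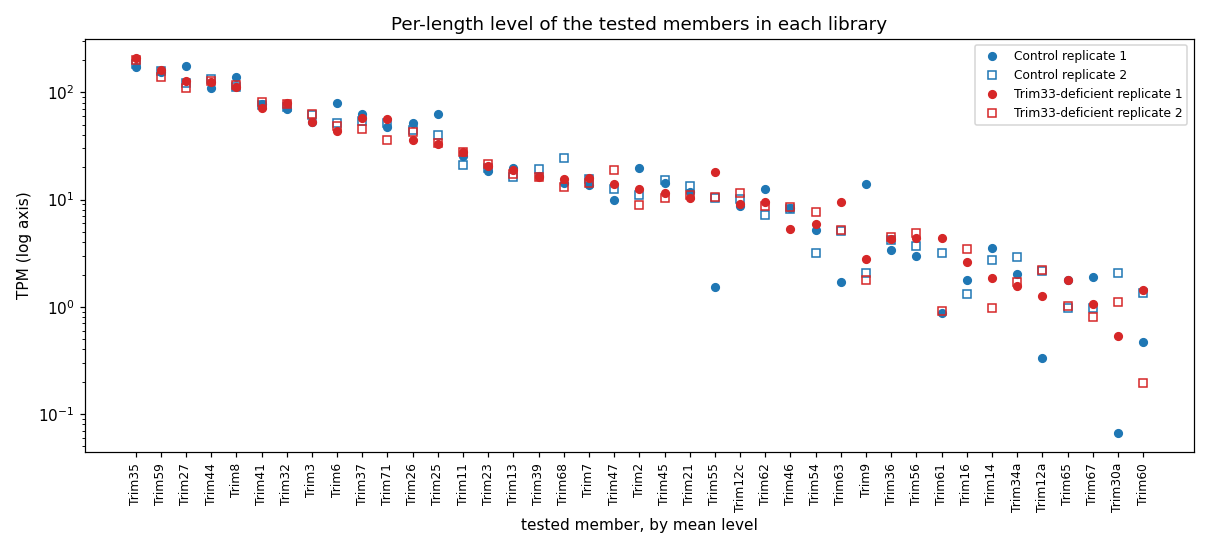
TPM of the 41 tested members in each library (log y axis), ordered along the x axis by mean level, with filled symbols for replicate 1 and open symbols for replicate 2. Among the leading members, Trim35 runs from 173 to 210 TPM and Trim27 from 109 to 175 TPM. Trim9, Trim55 and Trim30a have a Control replicate 1 value far from the other libraries.

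None of the 5 most abundant members by TPM passed the main test, and their log2 fold changes lay between −0.30 and 0.24. Trim35, a PRY-SPRY ligase first described in blood cell lines, had 198 and 218 CPM in Control bodies against 247 and 244 CPM in Trim33-deficient ones. Both Trim33-deficient libraries were higher, by a log2 fold change of 0.24 (SE 0.11, edgeR adjusted p = 0.663). Trim59, which is anchored in membranes, had 142 and 151 CPM in Control bodies against 153 and 135 CPM in Trim33-deficient ones. Its groups overlapped, and its log2 fold change was −0.021 with a 95% interval from −0.33 to 0.28. Trim44, which lacks a RING finger and carries a ubiquitin protease type zinc finger, had 192 and 242 CPM against 226 and 237 CPM, and its groups overlapped. Its log2 fold change was 0.092 (SE 0.15). Trim27, a ligase tied to transcriptional repression and endosome sorting, had 235 and 169 CPM in Control bodies against 175 and 155 CPM in Trim33-deficient ones. Only Control replicate 1 stood out, and the log2 fold change came to −0.30 (SE 0.19, edgeR adjusted p = 0.711). Trim8, a ligase of cytokine and NF-kappaB signalling, had 155 and 129 CPM against 127 and 137 CPM, again with overlap, at −0.10 (SE 0.13).

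The TRIM-NHL genes encode regulators of RNA and protein in stem cells and neurons, and none of the 4 passed the test. Trim71, the LIN-41 ortholog that represses mRNAs in embryonic stem cells and is itself a target of let-7, had 138 and 158 CPM in Control bodies against 168 and 111 CPM in Trim33-deficient ones. The Trim33-deficient libraries were the highest and the lowest of the 4, and the log2 fold change was −0.082 (SE 0.22, 95% interval −0.67 to 0.51). Trim32, a ligase of muscle proteins and of neural progenitors, had 69.0 and 76.2 CPM in Control bodies against 81.0 and 81.5 CPM in Trim33-deficient ones. Its groups did not overlap, with a difference of 0.16 on the log2 scale (SE 0.12, edgeR adjusted p = 0.725). Trim3, a brain-enriched ligase, had 49.8 and 59.7 CPM against 50.5 and 62.8 CPM, so that replicate 2 was the higher library in both groups. Its log2 fold change was 0.050 (SE 0.17). Trim2, which ubiquitinates neurofilament light chain, had 45.1 and 26.8 CPM in Control bodies against 30.0 and 21.7 CPM in Trim33-deficient ones. Its groups overlapped, at −0.48 (SE 0.32, edgeR adjusted p = 0.719), and leaving out Control replicate 2 gave −0.80, leaving out Control replicate 1 only −0.053.

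Genes of the let-7 and LIN28 axis, in which Trim71 works, did not pass either. Of 8 tested, 2 were above 0 and 6 below, with 0 called and a median of −0.023. The genes with the smallest p were Hmga2, a chromatin protein gene repressed by let-7, at 0.59 (SE 0.26, edgeR adjusted p = 0.663) and Lin28a, the let-7 processing inhibitor, at −0.40 (SE 0.40, edgeR adjusted p = 0.797). Lin28a had 5488 and 5925 counts in Control bodies against 7183 and 2802 in Trim33-deficient ones. Trim71 had 1788, 1613, 2328 and 1303 counts in the same order, so both genes were lowest in Trim33-deficient replicate 2.

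The muscle TRIM genes included the 2 highest fold changes among the tested members, those of Trim55 and Trim63, without passing the test. Trim55, Trim63 and Trim54 encode the MuRF proteins, ligases of the sarcomere. Trim55 had 16 and 89 counts in Control bodies against 207 and 106 in Trim33-deficient ones, or 1.24 and 8.69 against 14.9 and 9.05 CPM. Its groups were apart only narrowly, and Control replicate 1 was far below the rest. The log2 fold change came to 1.29 (SE 0.90, edgeR adjusted p = 0.723), and leaving out 1 library moved it between 0.46 (without Control replicate 1) and 3.28 (without Control replicate 2). Trim63, the MuRF1 gene of muscle wasting, had 13 and 32 counts in Control bodies against 79 and 38 in Trim33-deficient ones. Its levels of 3.12 CPM in Control replicate 2 and 3.25 CPM in Trim33-deficient replicate 2 nearly met. The log2 fold change came to 1.13 (SE 0.67, edgeR adjusted p = 0.695), with 0.52 and 2.15 without Control replicates 1 and 2. Trim54 had 30 and 15 counts in Control bodies against 38 and 42 in Trim33-deficient ones, at 0.73 (SE 0.44, edgeR adjusted p = 0.699). Annotated exons of Gm15469 on the opposite strand cover 26.6% of the exonic bases of Trim54, and whether the counting used strand is not stated. Trim72, the membrane repair protein gene MG53, had 2 to 4 counts in each library and was not tested.

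Cardiomyocyte markers were set beside them. Summed over 10 markers, they stood at 193 and 466 CPM in Control bodies against 1494 and 320 CPM in Trim33-deficient ones, with 9 of 10 above 0, a median log2 fold change of 1.41 and 0 called. Trim33-deficient replicate 1 was highest for this sum, for Trim55 and for Trim63, and Control replicate 1 was lowest for all 3. Trim54 had another order, lowest in Control replicate 2 (1.46 CPM) and highest in Trim33-deficient replicate 2 (3.59 CPM). No marker of the list was at 0 in all libraries. The part of these markers in the muscle TRIM values was not tested.

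**Figure D3:**
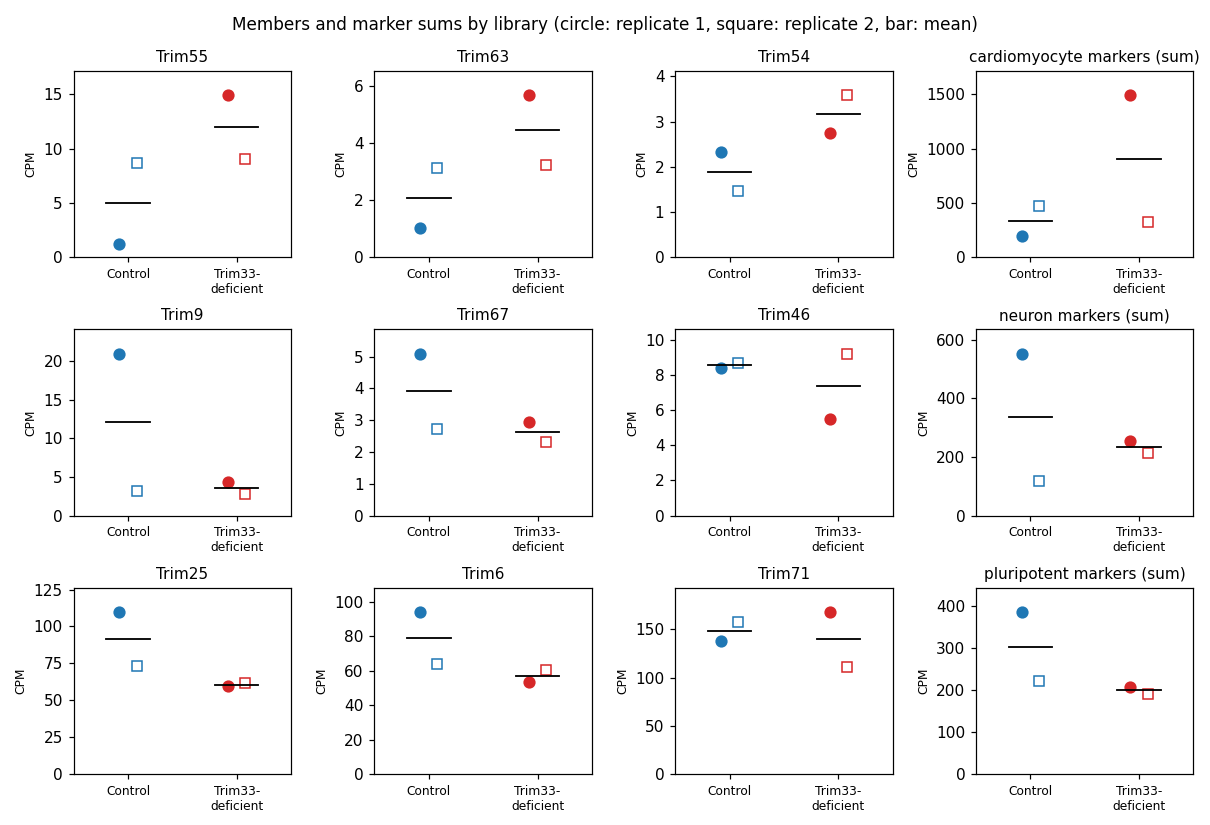
CPM by library (y axes start at 0) of 9 members and of 3 marker sums, with circles for replicate 1, squares for replicate 2 and bars for group means. Trim55 and Trim63 are lowest in Control replicate 1 and highest in Trim33-deficient replicate 1, as is the cardiomyocyte sum, and Trim9 and Trim67 are highest in Control replicate 1, as is the neuron sum.

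TRIM genes with a COS box and a fibronectin repeat bind microtubules and are used in axons. Trim9, a brain ligase that binds the netrin receptor DCC, had 272 and 33 counts in Control bodies against 60 and 33 in Trim33-deficient ones. Control replicate 1 alone was high, at 21.0 CPM, and the other libraries lay between 2.82 and 4.33 CPM. The log2 fold change came to −1.76 (SE 0.91, edgeR adjusted p = 0.677), the lowest among the tested members, and it turned to 0.15 without Control replicate 1. Without Control replicate 2 it was −2.54 (edgeR adjusted p = 0.0525), in a fit whose Control is that 1 high library and whose spread comes from the Trim33-deficient pair alone. Trim67, the closest relative of Trim9, had 66 and 28 counts in Control bodies against 41 and 27 in Trim33-deficient ones, and its log2 fold change of −0.58 (SE 0.46) shrank to −0.056 without Control replicate 1. Trim46, which bundles microtubules at the start of the axon, had 8.42 and 8.69 CPM against 5.48 and 9.22 CPM. Only Trim33-deficient replicate 1 was low, and the value was −0.22 (SE 0.35). Trim36, known from sperm and early embryos, had 4.79 and 6.15 CPM against 6.27 and 6.66 CPM, at 0.24 (SE 0.30).

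Neuron markers were likewise highest in Control replicate 1. Their sum over 10 genes was 552 and 118 CPM in Control bodies against 253 and 215 CPM in Trim33-deficient ones, and all 10 lay below 0 (median log2 fold change −0.56, 0 called). No neuron marker was at 0. Among 7 netrin and axon guidance partners 0 were called, 4 were above 0 and 3 below. The 2 with the smallest p were Dcc at −1.04 (SE 0.59, edgeR adjusted p = 0.685) and the netrin receptor gene Unc5b at 0.57 (SE 0.32, edgeR adjusted p = 0.685). Dcc had 254 and 77 counts in Control bodies against 120 and 53 in Trim33-deficient ones, highest in Control replicate 1 like Trim9. The part of neuron markers in the Trim9 and Trim67 values was not tested.

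Among TRIM genes of innate immunity, Trim25 had the smallest p and Trim14 the lowest log2 fold change. Of the 17 such genes in the files 13 were tested, with 4 above 0 and 9 below, a median of −0.27 and 0 called. The groups did not overlap in 7 of the 13, with Trim33-deficient values lower in 6 and higher in 1, where 21.4% and 19.3% of all tested genes were lower and higher in this way. Trim25 encodes the ligase that activates the RNA sensor RIG-I and also binds RNA. It had 1420 and 749 counts in Control bodies against 823 and 721 in Trim33-deficient ones, or 110 and 73.1 against 59.4 and 61.6 CPM. The groups were apart and 66.1% of the Control mean was left, at a log2 fold change of −0.60 (SE 0.22, edgeR adjusted p = 0.63). Leaving out Control replicate 2 gave −0.85 and leaving out Control replicate 1 gave −0.28.

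Trim6, a ligase that also acts with MYC in embryonic stem cells, had 94.2 and 64.0 CPM in Control bodies against 53.3 and 60.7 CPM in Trim33-deficient ones. Its groups were apart, at −0.47 (SE 0.22, edgeR adjusted p = 0.664), and at −0.17 without Control replicate 1. The sum of 7 pluripotency markers was 386 and 222 CPM in Control bodies against 209 and 191 CPM in Trim33-deficient ones, with 6 of 7 below 0 and 0 called. Control replicate 1 was thus the highest library for this sum, for Trim6 and for Trim25, and whether the markers account for those values was not tested.

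Trim14, a RING-less adaptor of the mitochondrial sensor protein MAVS, had 38 and 24 counts in Control bodies against 22 and 10 in Trim33-deficient ones. At −1.10 (SE 0.50, edgeR adjusted p = 0.663) it was the second lowest value, from few counts. Annotated exons of other genes on the opposite strand, Nans among them, cover 38.0% of its exonic bases, and whether the counting used strand is not stated here. Trim26, a ligase acting on IRF3, had 69.5 and 62.8 CPM against 49.5 and 60.6 CPM, at −0.27 (SE 0.15), and Trim21, the cytosolic antibody receptor gene, 10.1 and 12.2 CPM against 9.23 and 10.1 CPM, at −0.21 (SE 0.24). In the other direction, Trim56, a ligase of the STING and Toll-like receptor pathways, had 8.65 and 11.03 CPM in Control bodies against 12.9 and 15.0 CPM in Trim33-deficient ones. Both Trim33-deficient libraries were above both Control libraries, and the log2 fold change came to 0.51 (SE 0.25, edgeR adjusted p = 0.671).

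Partners of these genes in RIG-I and interferon signalling showed no shared direction. Of 14 tested, 8 were above 0 and 6 below, with 0 called and a median of 0.052. The ubiquitin-like modifier gene Isg15 was at 1.17 (SE 0.56, edgeR adjusted p = 0.664), from 18 and 7 counts in Control bodies against 26 and 34 in Trim33-deficient ones. The RIG-I gene itself, Ddx58, was at −0.029 (SE 0.17).

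Among members that are alone in their domain class, the log2 fold changes stayed within 0.5 of 0. Trim37, the mulibrey nanism gene, limits centriole assembly through a MATH-domain ligase. It had 111 and 99.1 CPM in Control bodies against 103 and 85.1 CPM in Trim33-deficient ones, at −0.16 (SE 0.14), and its groups overlapped. Of 7 centriole duplication genes 0 were called, and Cep192 and Usp28, with the smallest p, were at −0.28 (SE 0.12, edgeR adjusted p = 0.657) and −0.25 (SE 0.16, edgeR adjusted p = 0.709). Trim23, which carries an ARF GTPase domain, had 24.2 and 27.4 CPM against 27.9 and 30.1 CPM, at 0.17 (SE 0.16). Trim45, with a filamin-type domain, had 20.2 and 22.9 CPM in Control bodies against 16.8 and 15.8 CPM in Trim33-deficient ones. Both Trim33-deficient libraries were below, at −0.40 (SE 0.18, edgeR adjusted p = 0.664).

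The 12 tested members in no role list included 8 above 0 and 4 below. Trim16, a RING-less protein of damaged-membrane autophagy, had 28 and 17 counts in Control bodies against 45 and 52 in Trim33-deficient ones. Its Trim33-deficient mean was 201% of Control, the groups were apart, and the log2 fold change came to 0.996 (SE 0.40, edgeR adjusted p = 0.65). Trim47 had 6.72 and 8.89 CPM in Control bodies against 9.81 and 13.8 CPM in Trim33-deficient ones, at 0.60 (SE 0.31, edgeR adjusted p = 0.676). Trim11, a PRY-SPRY ligase, had 28.0 and 23.8 CPM against 31.2 and 32.1 CPM, at 0.29 (SE 0.16, edgeR adjusted p = 0.684). In all 3 genes both Trim33-deficient libraries lay above both Control libraries, where 19.3% of all tested genes did so. These 3 were named for a small p, so this count does not describe the list. The other 8 besides Trim35 ran from −0.40 for Trim68 to 0.41 for Trim61.

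TRIM proteins that carry other symbols were set beside the members. Of 6 such genes 5 were tested, with 4 below 0 and 1 above, and 0 called, where 0.014% of all tested genes were. At an unadjusted p under 0.05 (edgeR) 2 were lower, where 4.78% of all tested genes were. Those 2 were the TRIM-like genes Triml1 and Triml2. Triml1 had 79 and 38 counts in Control bodies against 14 and 18 in Trim33-deficient ones, at −1.95 (SE 0.47, edgeR adjusted p = 0.544). Triml2 had 141 and 70 against 43 and 45 counts, at −1.35 (SE 0.37, edgeR adjusted p = 0.548). For each gene the Trim33-deficient values were the 2 lowest, as they were for 21.4% of all tested genes. The gene above 0 was Mid2, with 6.65 and 7.62 CPM in Control bodies against 12.3 and 9.99 CPM in Trim33-deficient ones. It was at 0.64 (SE 0.26, edgeR adjusted p = 0.65), and its groups did not overlap, as for 19.3% of all tested genes in this direction. Mid1 was at −0.46 (SE 0.20, edgeR adjusted p = 0.659) and the nuclear body gene Pml at −0.0050 (SE 0.13).

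The 20 members that were not tested were rare or undetected. Trim40, Trim42 and Trim43b had 0 counts in all libraries, where 0 counts allow a level of up to 0.216 to 0.293 CPM in a library (3 counts of its total, counting error only). Trim30b, Trim31, Trim38, Trim43a and Trim50 had 2 counts or fewer in all. Trim10 and Trim58, genes of red cell maturation, were low. Trim10 had 0 and 4 counts in Control bodies against 4 and 26 in Trim33-deficient ones, and Trim58 had 0, 0, 1 and 2. The sum of 8 erythroid markers was 6.10 and 134 CPM in Control bodies against 38.9 and 221 CPM in Trim33-deficient ones, so Trim33-deficient replicate 2 was highest and Control replicate 1 lowest for this sum and for Trim10.

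Several members share stretches of sequence with other genes, which limits what their counts mean. In 9 members at least 10% of the 50-base stretches of the longest transcript also occur in a transcript of another gene. The share was 59.3% for Trim34b and 41.5% for Trim34a, which match each other, and 42.4% to 48.8% for the 3 Trim43 genes. Trim12a (23.6%) and Trim12c (32.7%) match each other and Trim5, a symbol absent from the counts. Reads from such stretches can be lost or split. Annotated exons on the opposite strand also cover 23.5% of the exonic bases of Trim34a. On chromosome 7, 8 members lie within a run of 11 protein-coding genes in the GRCm38 gene order, from Trim6 through the Trim34, Trim12 and Trim30 genes. Only Trim6, at 55.6 TPM, and Trim12c, at 9.88 TPM, exceeded 3 TPM there. Trim26, at 43.5 TPM, likewise adjoins Trim15, Trim10, Trim40 and Trim31 on chromosome 17, which were at 1.37 TPM or less.

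Promoters were read because members spanned such a range of levels within one family. RefSeq promoters (GRCm38.p6) matched 47 of the 61 members by symbol. The 250 bases upstream of the start are printed for the 2 members with the highest mean TPM among the matched and the first 2 in number order that had 0 counts, in lower case with each CpG dinucleotide in capitals. They come from chr3:69044743-69044992 (minus strand, Trim59), chr13:21179681-21179930 (plus strand, Trim27), chr17:36890126-36890375 (minus strand, Trim40) and chr9:97369959-97370208 (minus strand, Trim42).
Trim59: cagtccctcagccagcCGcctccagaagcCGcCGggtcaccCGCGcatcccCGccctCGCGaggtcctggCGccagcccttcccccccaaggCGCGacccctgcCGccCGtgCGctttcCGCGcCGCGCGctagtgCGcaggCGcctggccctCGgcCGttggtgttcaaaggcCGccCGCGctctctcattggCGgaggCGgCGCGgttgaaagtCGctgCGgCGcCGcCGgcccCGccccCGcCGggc
Trim27: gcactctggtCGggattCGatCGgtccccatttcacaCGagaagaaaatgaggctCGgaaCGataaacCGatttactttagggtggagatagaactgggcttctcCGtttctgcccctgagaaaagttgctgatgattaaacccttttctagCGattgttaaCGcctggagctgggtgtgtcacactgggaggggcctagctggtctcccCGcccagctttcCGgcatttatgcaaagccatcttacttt
Trim40: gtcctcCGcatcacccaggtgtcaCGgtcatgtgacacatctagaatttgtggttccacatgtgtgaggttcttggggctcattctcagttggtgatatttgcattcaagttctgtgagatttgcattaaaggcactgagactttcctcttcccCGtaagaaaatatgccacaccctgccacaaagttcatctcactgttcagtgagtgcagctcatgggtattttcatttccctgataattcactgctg
Trim42: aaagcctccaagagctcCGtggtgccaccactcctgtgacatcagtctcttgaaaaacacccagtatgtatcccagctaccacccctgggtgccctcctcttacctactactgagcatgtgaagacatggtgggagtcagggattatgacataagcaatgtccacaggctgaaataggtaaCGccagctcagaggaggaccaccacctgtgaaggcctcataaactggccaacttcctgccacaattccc

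The Trim59 window holds 38 CpG dinucleotides and that of Trim27 holds 12, against 3 for Trim40 and 2 for Trim42. Over the matched members the median was 15 for the 19 at 10 TPM or more (range 1 to 39), 8 for the 12 between 1 and 10 TPM and 2 for the 16 under 1 TPM (range 0 to 11). Across all 16775 genes with a promoter the medians of these 3 level classes were 17, 11 and 2. Any of those genes without an annotated length counted as 0 TPM. Across the 47 members CpG number and mean TPM had a Spearman rho of 0.65, as across all genes with a promoter (0.65). The points share the same 4 libraries, genes are not independent replicates, and GC content was not set apart from CpG number. The relation is loose, as Trim13, at 17.9 TPM with 1 CpG, and Trim21, at 11.6 TPM with 3, lay off it. Trim13 has 2 RefSeq promoters, of which 1 was read, and shares 14.3% of its 50-base stretches with another gene.

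**Figure D4:**
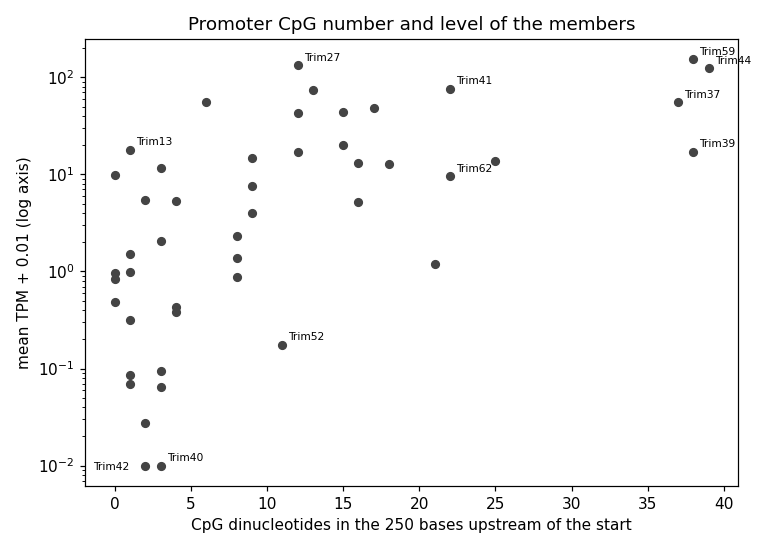
CpG dinucleotides in the 250 bases upstream of the start (x axis) against mean TPM over the 4 libraries (log y axis, 0.01 added) for the 47 members with a RefSeq promoter, 1 point per gene. Trim59, Trim44, Trim39 and Trim37 stand at the right with 37 to 39 CpG, and Trim40 and Trim42, with 0 counts, at the lower left.

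Motifs were searched in the same windows on both strands. The SMAD box CAGAC, bound by the SMAD partners of TRIM33, was in 21 of 47 members (44.7%), against 40.7% of all promoters of this length. The interferon-stimulated response element core GAAANNGAAA was in 4 (8.51%), Trim12c, Trim26, Trim30a and Trim30d, against 2.94% of all. Of these, Trim26 and Trim30a had log2 fold changes of −0.27 (SE 0.15) and −0.34 (SE 1.33), Trim12c 0.16 (SE 0.26), and Trim30d was not tested. Trim12c, Trim30a and Trim30d lie in the chromosome 7 run, so the 4 matches may not be independent. A match is a string of letters and not a bound site.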

How the data were processed

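The authors deposited raw counts per gene symbol for 4 libraries, whose titles assign 2 to each group. STAR, HTSeq, DESeq and the mm9 build are listed, without versions or roles, in the submitters' processing notes. No source used here states whether counting used strand. Reads assigned to no feature, 55.5% to 56.0% of the reads in the files, were kept out of all steps. The authors' deposited table gives each gene a log2 ratio together with raw and adjusted p-values, and only its gene names were used.

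Counts were filtered with filterByExpr, scaled by TMM and tested with edgeR 4.0.16 (quasi-likelihood test, two-sided, Benjamini-Hochberg over all tested genes, threshold 0.05) in R 4.3.3. Standard errors are the absolute log2 fold change over the square root of F, and the 95% intervals use the t quantile of the same fit. The alternatives tried were voom from limma 3.58.1, DESeq2 1.42.0, the likelihood ratio test, RLE scaling, 2 other low-count filters, the replicate block and each library left out. The scripts were tested on simulated data. TPM values and shared 50-base stretches came from GENCODE transcripts of GRCm38, and all 61 members had a length. Of the 24015 genes in the files 22709 had a length, and the others were set to 0 TPM. A member's promoter was the RefSeq entry nearest the start of its longest coding transcript, and the comparison over all genes took the first entry of each.

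Replicates were not duplicates, with a chi-square per degree of freedom of 35.7 and 24.3.

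Named genes were the tested members of 5 role lists (NHL, muscle, COS box, erythroid and single-member classes), the 12 with the smallest p, the 6 with the highest CPM, the 3 extreme values in each direction at 1 CPM or more, and 2 genes per partner list, of which 1 is not reported here. Any other gene named was picked with its values in view. Members and lists were chosen with earlier results of these data known.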

Additional observations from a re-analysis of the deposited data

How the results depend on the processing

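The count of called members was 0 under all 11 alternatives, several of which called next to nothing. Over all genes, calls numbered 0 with limma voom and without either Trim33-deficient library, 2 with RLE scaling, the 1 CPM filter and the replicate block, 10 without Control replicate 1, 14 without a filter, 91 without Control replicate 2, 141 with DESeq2 and 169 with the likelihood ratio test. The count at an unadjusted p under 0.05 was 1, and was 2 with DESeq2 (Trim9 and Trim25), 2 with the replicate block (Trim2 and Trim25) and 0 with limma voom. Over the left-out libraries it ran from 0 to 9. The 9 came without Control replicate 2, with 4 higher (Trim12a, Trim30a, Trim55 and Trim63) and 5 lower (Trim2, Trim6, Trim9, Trim25 and Trim27), or 20.5% of the members tested there, beside 18.3% of all genes. The cause was not tested. Without Control replicate 1 it was 1, Trim68, and without Trim33-deficient replicate 1 or 2 it was 0. The replicate block changed no call of a member, and with it the lowest adjusted p of a member was 0.397 (edgeR). The labels speak of pairs but do not say that the replicate number marks them, and the deviations of same-numbered libraries had a Pearson correlation of 0.236 over all tested genes and −0.0037 over the tested members. Of 297 values of the 27 named members under alternatives, 287 kept their direction and side of the threshold and 10 changed sign, all with a library left out. Those ranges were −0.11 to 0.20 for Trim3, −0.22 to 0.026 for Trim8, −2.54 to 0.15 for Trim9, −0.068 to 0.27 for Trim44, −0.64 to 0.11 for Trim46, −0.11 to 0.070 for Trim59 and −0.40 to 0.19 for Trim71. Among values that kept their sign, Trim27 ran from −0.51 to −0.046 and Trim37 from −0.30 to −0.026 with a library left out, where a lone library takes its spread from the opposite group. No detection limit was measured, and even Afp, at a log2 fold change of −4.87, missed the main threshold (edgeR adjusted p = 0.0801).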

Other observations

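Some rare members were low in Control replicate 1 alone. Trim12a had 5 counts there and 27 in Control replicate 2, against 21 and 32 in Trim33-deficient bodies. Of its 50-base stretches 23.6% are shared with other genes. Trim30a had 1 and 26 counts in Control bodies against 9 and 16 in Trim33-deficient ones. The marker sums of 3 lists were also lowest in Control replicate 1, the endothelial one at 183 CPM there and 447 in Control replicate 2, beside the cardiomyocyte and erythroid sums. One endothelial marker, Cdh5, was instead highest in Control replicate 1, at 123 CPM against 60.5 to 87.8 in the other libraries. Both members lie in the chromosome 7 run and were picked after their values were seen, and no relation between them and the markers was tested.

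Trim60 and Trim61, neighbours on chromosome 8, share 1 RefSeq start window. Trim60 had 5 and 12 counts in Control bodies against 17 and 2 in Trim33-deficient ones, and Trim61 had 7, 21, 38 and 7 in the same order. Trim33-deficient replicate 1 was the highest library for both. Annotated exons of the pair overlap on the same strand over 2.47% of the exonic bases of Trim60, so reads there can count as ambiguous.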
